A study of Mus musculus with 6 samples.

Results

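The phagocyte NADPH oxidase was described through 5 of its genes, Cybb, Cyba, Ncf1, Ncf4 and Rac2, which were chosen by name as subunits of the complex; all 5 had a row among the 16344 genes measured. The samples were 6 tumours grown from a mouse line that models high-grade serous cancer of the ovary, 3 labelled AZD7507 and 3 labelled Vehicle, all taken at the endpoint of disease. Cells of the mouse line 60577 had been placed in the abdominal cavity of syngeneic mice and left for 21 days. Carboplatin was then given once a week for 3 cycles, followed by oral AZD7507 each day for 84 days, in a protocol text attached to all 6 samples that does not describe the vehicle apart. AZD7507 inhibits CSF1R, the receptor on which macrophages depend. The series asked what this inhibitor does in tumours that relapse after carboplatin. All tumours derive from 1 cell line, and the sources used here do not give the strain, age or sex of the mice.

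The phagocyte oxidase passes electrons from NADPH to oxygen and so makes superoxide, which macrophages and neutrophils use against microbes and as a signal. A membrane core of CYBB (gp91phox) and CYBA (p22phox) is switched on when cytosolic subunits, among them NCF1 (p47phox) and NCF4 (p40phox), move to it from the cytosol together with a RAC GTPase. Several of its genes are known targets of PU.1 (Spi1) and IRF8 in myeloid cells.

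The promoter windows below are shown because genes of 1 complex with known shared regulators were measured side by side. They hold the 250 bases before the RefSeq start of each gene (GRCm38.p6, all on the minus strand, 5′ to 3′ toward the gene), and 3 of the 5 genes matched an entry. Cybb lies at chrX:9469325-9469574, Cyba at chr8:122432941-122433190 and Ncf1 at chr5:134229626-134229875. Capitals mark matches on either strand to the IRF pair motif, spelled GAAA, then any 2 bases, then GAAA.
Cybb: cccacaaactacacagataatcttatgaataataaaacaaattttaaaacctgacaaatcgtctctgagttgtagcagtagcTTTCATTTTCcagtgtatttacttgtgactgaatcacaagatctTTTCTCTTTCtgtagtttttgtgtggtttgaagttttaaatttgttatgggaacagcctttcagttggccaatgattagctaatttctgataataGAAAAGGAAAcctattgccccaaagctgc
Cyba: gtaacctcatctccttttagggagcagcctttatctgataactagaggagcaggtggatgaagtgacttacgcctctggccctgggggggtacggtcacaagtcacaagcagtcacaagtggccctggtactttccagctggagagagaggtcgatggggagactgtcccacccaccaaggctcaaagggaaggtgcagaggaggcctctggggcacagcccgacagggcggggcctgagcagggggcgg
Ncf1: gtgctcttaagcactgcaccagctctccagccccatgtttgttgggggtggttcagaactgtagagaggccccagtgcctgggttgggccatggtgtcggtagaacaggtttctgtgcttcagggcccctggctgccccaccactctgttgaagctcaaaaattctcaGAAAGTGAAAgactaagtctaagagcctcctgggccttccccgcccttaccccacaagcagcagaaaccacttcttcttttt
Cybb held 3 such matches, at positions -168 to -159, -124 to -115 and -29 to -20 before the start, and Ncf1 held 1, at -82 to -73. The same letters occurred in 2.98% of 32851 mouse promoter windows of this length. The PU.1 core GAGGAA, present in 23.3% of all windows, and the ETS and IRF composite, spelled GGAA, then any 2 bases, then GAAA and present in 2.30%, were found in none of the 3 windows on either strand; the last motif can overlap the IRF pair. A match of letters is a description and not a bound site. For Cybb the GENCODE M21 gene body reaches farther upstream than this RefSeq start.

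All 5 oxidase genes had lower mean levels in AZD7507 tumours, and 0 of them passed the threshold over all genes (limma, Benjamini-Hochberg adjusted p under 0.05). Across the transcriptome 0.337% of genes passed downward and 0.0184% upward. At an unadjusted p under 0.05, 4 of the 5 members were lower in AZD7507 tumours, as were 5.49% of all genes, and 0 were higher, as were 3.31% of all genes. For the same 4 genes, Cybb, Ncf1, Ncf4 and Rac2, all AZD7507 libraries lay below all Vehicle libraries, which held for 8.02% of all genes, while the reverse held for 0 members and 7.34% of all genes. The median difference of the 5 members, AZD7507 minus Vehicle, was -1.34 on the log2 scale, beside 0.03 over all genes. Levels are log2 RPKM, that is, reads per length of gene and per size of library on a log2 scale, after the authors' cqn normalization. In bulk tumours fewer cells of a type and less RNA per cell cannot be told apart.

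Cybb encodes the catalytic subunit that carries the electrons. It lies on chromosome X at 9435252 to 9487771 (GRCm38, GENCODE M21, protein-coding). Its log2 RPKM was 2.29, 1.74 and 1.06 in AZD7507 libraries 1 to 3, against 3.23, 3.51 and 3.25 in Vehicle libraries 1 to 3. The Vehicle libraries were close together, while the AZD7507 libraries spread over more than 1 log2 unit below them. The difference was -1.63 (SE 0.29, n = 3 each), or 3.10-fold lower in AZD7507 tumours, with a limma adjusted p of 0.094. Among all 16344 differences, ordered from the most negative, Cybb stood at place 130.

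Cyba encodes the membrane partner that holds CYBB in place and that also serves other NADPH oxidases outside phagocytes. Its gene is on chromosome 8 at 122424776 to 122432930. Cyba was at 2.61, 2.37 and 1.88 in the AZD7507 libraries, against 2.43, 3.47 and 2.85 in the Vehicle libraries. The groups overlapped, since Vehicle 1 lay below AZD7507 1. The difference was -0.63 (SE 0.29, limma adjusted p 0.60), the smallest in size among the 5 members. Vehicle 2 carried much of it, and without that library the difference was -0.35. It was -0.40 without both AZD7507 2 and Vehicle 2, the libraries rich in pancreatic acinar transcripts.

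The cytosolic organizer Ncf1 is on chromosome 5 at 134220053 to 134229625. Its levels were 2.0, 1.5 and 0.79 in AZD7507 libraries, against 2.76, 3.57 and 2.69 in Vehicle libraries. No AZD7507 library reached the lowest Vehicle library. Ncf1 differed by -1.58 (SE 0.35, limma adjusted p 0.17), a level 2.98-fold lower in AZD7507 tumours. Ncf4, whose product binds a phosphoinositide of the phagosome membrane, lies on chromosome 15 at 78244801 to 78262580. It was the member with the lowest level in each group, at 0.73, 0.14 and -0.25 in AZD7507 libraries, against 1.19, 2.07 and 1.38 in Vehicle libraries. The Ncf4 difference of -1.34 (SE 0.33) had a limma adjusted p of 0.22. On the scale of log2(RPKM + 1) it was -0.86; AZD7507 3 lay under 1 RPKM.

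Rac2 encodes the RAC GTPase of blood cells and lies on chromosome 15 at 78559167 to 78572783. Its levels were 2.23, 0.58 and 1.47 in AZD7507 libraries, against 2.72, 2.46 and 2.62 in Vehicle libraries. The Vehicle libraries were close together, and AZD7507 2 stood lowest. The difference was -1.17 (SE 0.37, limma adjusted p 0.39), and it was -0.75 without AZD7507 2. Among the AZD7507 tumours, library 2 was thus lowest for Rac2, whereas library 3 was lowest for the other 4 members.

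**Figure D1:**
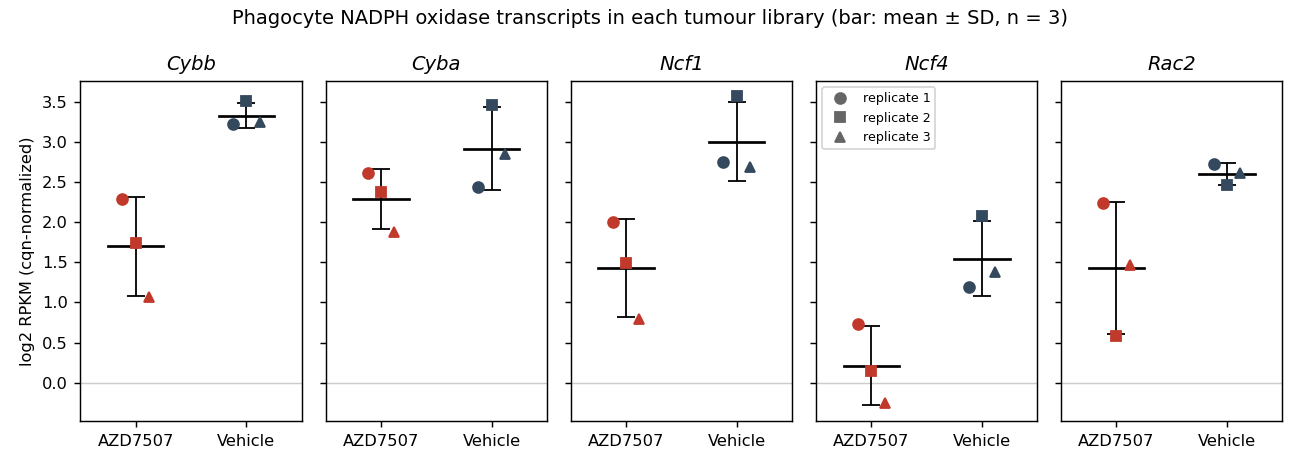
Level of each oxidase gene in log2 RPKM (vertical axis) in the AZD7507 and Vehicle libraries, with marker shapes for replicates and bars for mean ± SD (n = 3). Vehicle values of Cybb sit between 3.23 and 3.51, above all AZD7507 values, while the groups overlap for Cyba.

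The order of the mean levels was not the same in both groups. In AZD7507 tumours Cyba was highest at 2.29 ± 0.37, followed by Cybb at 1.70 ± 0.62, Rac2 at 1.43 ± 0.83, Ncf1 at 1.43 ± 0.61 and Ncf4 at 0.21 ± 0.49 (mean log2 RPKM ± SD, n = 3). In Vehicle tumours Cybb was highest at 3.33 ± 0.16, then Ncf1 at 3.01 ± 0.49, Cyba at 2.92 ± 0.52, Rac2 at 2.60 ± 0.13 and Ncf4 at 1.55 ± 0.46. Libraries of neighbouring genes overlapped in both orders, except that Ncf4 stood apart below the gene above it. Within each library, Cyba minus Cybb was positive in 3 of 3 AZD7507 tumours and negative in 3 of 3 Vehicle tumours.

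Whether members moved by unlike amounts was tested on the log2 ratio of 2 members within each library, for all 10 pairs. Cybb minus Cyba averaged -0.59 ± 0.25 in AZD7507 and 0.41 ± 0.38 in Vehicle tumours. Cyba minus Ncf1 averaged 0.86 ± 0.24 in AZD7507 and -0.09 ± 0.24 in Vehicle tumours. Cyba minus Ncf4 averaged 2.08 ± 0.18 in AZD7507 and 1.37 ± 0.11 in Vehicle tumours. For these 3 ratios, each with Cyba, the groups did not overlap, and each had p = 0.10 (exact permutation test, 2-sided), the smallest that 3 against 3 allows, with 0.33 after Benjamini-Hochberg adjustment over the 10 pairs. The other 7 ratios, Cyba minus Rac2 among them, had exact p from 0.20 to 1. Cybb minus Ncf1 was 0.27 ± 0.02 in AZD7507 and 0.32 ± 0.33 in Vehicle tumours, a difference of -0.05 whose sign turned without Vehicle 1 (0.022) and without Vehicle 3 (0.062). The ratio Ncf4 minus Rac2 differed by -0.17 and turned to 0.082 without AZD7507 3 and to 0.16 without Vehicle 2.

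Over the 6 libraries, Pearson's r between members ran from 0.52 for Cyba with Rac2 to 0.99 for Ncf1 with Ncf4, given as a description because the points share treatment and library. Genes most correlated with a member were sought among 11563 genes with a mean of at least 0, by Pearson's r over 6 libraries. The genes named are the highest of many values over few points, and r does not measure the size of a change. Ncf1 was closest to Fcer1g and Tyrobp, both adaptors that carry activating motifs for myeloid receptors, and to Igsf6 (r 0.999, 0.999 and 0.998). Ncf4 was closest to the phosphatase gene Ptpre, the transcription factor gene Zeb2 and the Fc receptor gene Fcgr3 (r 0.998, 0.998 and 0.996). For Cybb these were the phospholipase gene Plcb2, Oxa1l, which serves the inner mitochondrial membrane, and Nckap1l, a regulator of actin in blood cells (r 0.993 each). For Cyba they were Ints11, Mylip and Map4k5 (r 0.988, 0.988 and 0.987), and for Rac2 they were Atg4b, Btbd19 and Cnppd1 (r 0.997, 0.988 and 0.985). Sizes could differ widely, since Oxa1l ran from 3.72 to 4.07 over the libraries and Cybb from 1.06 to 3.51.

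Of 6 genes listed for partners of the complex, all had a value and none passed in either direction over all genes (limma). At an unadjusted p under 0.05, 1 was lower and 0 were higher, beside 5.49% and 3.31% of all genes. Cybc1, which encodes a chaperone of the membrane core, was at 4.21 ± 0.08 in AZD7507 and 4.33 ± 0.11 in Vehicle tumours (difference -0.12, 95% interval -0.37 to 0.12). Hvcn1, the proton channel gene that balances charge during the oxidative burst, differed by -0.79 (limma adjusted p 0.59), and by -0.50 without Vehicle 2 and -0.52 without AZD7507 3. It overlaps Tctn1 on the opposite strand, and 39.7% of its 50-base transcript windows occur in Tctn1 transcripts, so its level is uncertain.

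The 3 RAC genes differed in level by a wide margin. The ubiquitous Rac1 was at 5.22 ± 0.11 in AZD7507 and 5.32 ± 0.16 in Vehicle tumours, a difference of -0.09 (95% interval -0.39 to 0.20) that was 0.037 without both acinar-rich libraries. Rac3 was low, at -0.99 ± 0.21 in AZD7507 and -0.25 ± 0.23 in Vehicle tumours (difference -0.74, limma adjusted p 0.45). Rac2 made up 10.4%, 4.13% and 6.70% of the summed RPKM of Rac1, Rac2 and Rac3 in AZD7507 libraries, against 15.5%, 11.0% and 12.8% in Vehicle libraries. The 2 groups did not overlap for this share, with p = 0.10, the smallest an exact permutation test allows here. Rac1 overlaps Daglb on the opposite strand, and 50.3% of the 50-base windows in its transcripts also occur in Daglb transcripts, so its level and the Rac2 share are uncertain where strand was not used.

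Other NADPH oxidases were little represented: 3 of 9 listed genes had a value, and none passed (limma). With an unadjusted p under 0.05, 1 was lower and 0 were higher, beside 5.49% and 3.31% of all genes. Nox4, an oxidase of fibroblasts and other tissue cells, was at 0.05 ± 0.37 in AZD7507 and 0.82 ± 0.51 in Vehicle tumours (difference -0.77, limma adjusted p 0.55; -0.48 without Vehicle 3). Nox1 was at -2.72 ± 0.51 in AZD7507 and -3.28 ± 0.72 in Vehicle tumours, far under 1 RPKM. Its organizer Noxo1 was at 0.65 ± 0.58 in AZD7507 and 0.92 ± 0.20 in Vehicle tumours; the difference of -0.27 turned to 0.064 without AZD7507 2. Cybb made up 78.6%, 71.6% and 67.7% of the summed RPKM of Cybb, Nox1 and Nox4 in AZD7507 libraries, against 84.4%, 89.0% and 77.7% in Vehicle libraries. These shares overlapped (exact permutation test, 2-sided, p = 0.20), and Cybb was the main catalytic transcript of the 3 in each library.

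**Figure D2:**
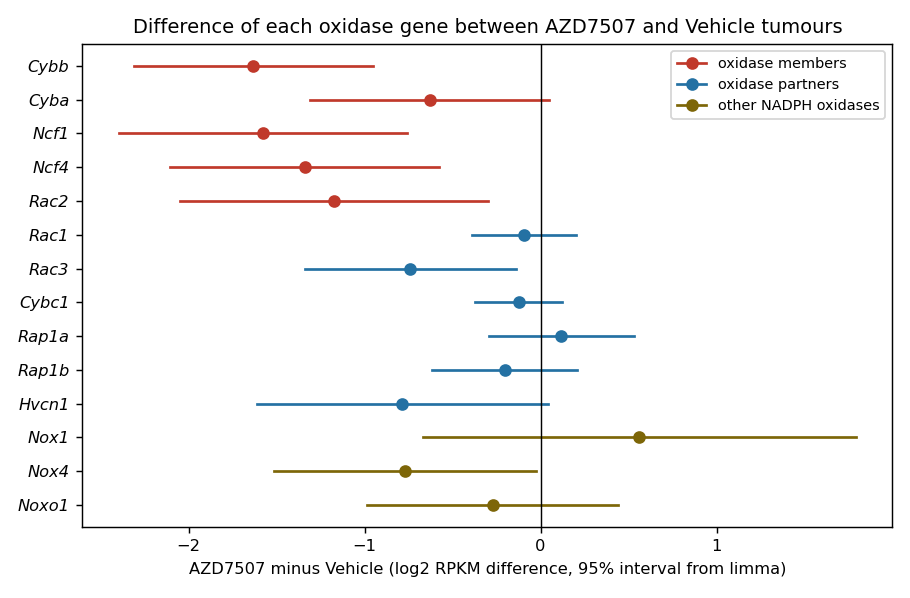
AZD7507 minus Vehicle difference in log2 RPKM (horizontal axis) for the oxidase members, partners and other NADPH oxidases, with points for the estimate and lines for the 95% interval from limma, not adjusted over genes. Intervals of Cybb, Ncf1, Ncf4 and Rac2 lie below 0, and that of Cyba reaches 0.05.

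Genes listed for control of oxidase activation had a median difference of -0.36 over 20 of 20 measured. The list holds genes that switch RAC on and genes that hold it off, such as Arhgap15. By limma 0 were called in either direction. At an unadjusted p under 0.05, 9 were lower and 1 higher, beside 5.49% and 3.31% of all genes. Prex1 and Vav1, both exchange factors that load RAC with GTP, came closest. Prex1 was at 0.17 ± 0.29 in AZD7507 and 1.85 ± 0.36 in Vehicle tumours, a difference of -1.68 (SE 0.25). Vav1 was at 0.46 ± 0.38 in AZD7507 and 2.01 ± 0.20 in Vehicle tumours, a difference of -1.56 (SE 0.23). Both had a limma adjusted p of 0.053. With array weights both passed, at adjusted p of 0.015 for Prex1 and 0.032 for Vav1, as did Pik3cd (0.022) and Arhgap15 (0.032). Both also passed with a pseudocount of 0.1, and Vav1 with a pseudocount of 1. Without single libraries the limma adjusted p was 0.11 to 0.19 for Prex1 and 0.0997 to 0.22 for Vav1. Among the other genes of this list, the exchange factor Dock2 differed by -1.51 and the GTPase-activating gene Arhgap15 by -1.54. The lipid kinase genes Pik3cd, Pik3cg and Pik3r5 differed by -0.93, -1.57 and -1.32. Of the 20 genes 17 had a negative and 3 a positive difference. The positive ones were Prkca at 0.43, Vav3 at 0.22 and Tiam1 at 0.08. Prkca was the 1 higher gene, with all AZD7507 libraries above all Vehicle libraries. Prkcd, Pak1, Pak2 and Akt1 differed by -0.09, -0.14, -0.02 and -0.12.

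Receptors that trigger the oxidase had 13 of 15 genes measured and a median difference of -1.0. By limma 0 passed over all genes. At an unadjusted p under 0.05, 11 were lower and 0 higher, beside 5.49% and 3.31% of all genes. Fcgr1, the high-affinity IgG receptor, was at 0.80 ± 0.56 in AZD7507 and 2.54 ± 0.15 in Vehicle tumours (difference -1.75, limma adjusted p 0.064), and passed with array weights (0.025) and with a pseudocount of 1 (0.044), but had adjusted p of 0.078 to 0.24 without single libraries. Fcer1g, the adaptor of such receptors, differed by -1.44 and Fcgr3 by -1.38. Tlr2, a sensor of bacterial lipoproteins, differed by -0.54.

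Of 7 measured regulators of the oxidase genes, 1 was called lower and 0 higher, beside 0.337% and 0.0184% of all genes. At an unadjusted p under 0.05, 3 were lower and 0 higher (limma), beside 5.49% and 3.31% of all genes. Their median difference was -0.27, with 6 negative and 1 positive. The positive one was Irf1 at 0.27, with all AZD7507 libraries above all Vehicle libraries, which held for 7.34% of all genes. Irf8 fell to 0.89, 0.90 and 0.30 in AZD7507 libraries, against 2.22, 2.65 and 2.34 in Vehicle libraries, which is -1.71 apart (SE 0.21, with 0.035 as limma's adjusted p). The call was lost when any 1 library was left out (adjusted p 0.078 to 0.15), with a constant variance prior (0.056) and without both acinar-rich libraries (0.081). Spi1, which encodes PU.1, was at 0.26, 0.02 and -0.97 in AZD7507 libraries, against 0.81, 1.77 and 0.89 in Vehicle libraries; the difference of -1.39 (SE 0.40) had a limma adjusted p of 0.32.

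Genes around the oxidase's substrate and products had medians near that of all genes, and none passed (limma). At an unadjusted p under 0.05, 1 of 17 genes of peroxide and superoxide handling and 1 of 8 of the NRF2 response were higher. No gene of these lists or of NADPH supply was lower. Over all genes 3.31% were higher and 5.49% lower. The median difference was 0.12 over 17 genes for peroxide and superoxide handling, 0.06 over 8 genes of the NRF2 response and -0.07 over 7 genes of NADPH supply. Prdx1, a peroxide-reducing enzyme gene, was at 3.37 ± 0.12 in AZD7507 and 3.04 ± 0.10 in Vehicle tumours, whereas Gpx3, for a secreted glutathione peroxidase, was at 3.40 ± 0.21 in AZD7507 and 3.85 ± 0.37 in Vehicle tumours. The superoxide dismutase gene Sod1 differed by 0.30. The cystine carrier gene Slc7a11 was at 2.04, 1.09 and 0.56 in AZD7507 libraries, against -0.34, 0.57 and 0.48 in Vehicle libraries, and the quinone reductase gene Nqo1 differed by 0.37, or by 0.17 without Vehicle 1 and 0.22 without AZD7507 2. Among enzymes that make NADPH, G6pdx differed by 0.17 and Me1 by 0.34, the last being 0.21 without Vehicle 1 and 0.57 without both acinar-rich libraries.

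Markers of macrophages, which carry the oxidase, were lower in AZD7507 tumours. All 15 had a negative difference and 6 were called (limma), beside 0.337% of all genes called lower. Without AZD7507 1 the count was 2, and it was 0 without any other single library. The summed level of the 15 was 95.4 to 228 RPKM in AZD7507 against 450 to 736 RPKM in Vehicle tumours. Of 9 pan-leukocyte genes all had a negative difference and 0 were called by limma. All 9 were lower at an unadjusted p under 0.05, as were 5.49% of all genes. Laptm5 and Ptprc differed by -1.70 and -1.45, and Coro1a by -1.72. Neutrophils also hold the complex. Of 14 neutrophil markers 6 were measured, with a median difference of 0.38 and a summed level of 7.15 to 12.9 RPKM in AZD7507 against 5.13 to 76.8 RPKM in Vehicle tumours. The highest of these sums was in Vehicle 2, where Mmp9 was at 5.94. The neutrophil calprotectin gene S100a8 was at 1.78, 1.38 and 0.82 in AZD7507 libraries, against -0.66, 1.95 and -0.03 in Vehicle libraries. Of the 6 neutrophil markers 3 had a positive and 3 a negative difference, and the 1 with an unadjusted p under 0.05 was Csf3r, the G-CSF receptor gene, at -0.68 with no overlap of groups (limma adjusted p 0.43). Monocyte markers had a median difference of 0.35 over 6 of 7 genes and a summed level of 17.2 to 34.7 RPKM in AZD7507 against 31.1 to 68.5 RPKM in Vehicle tumours. Of these 6 genes 4 had a positive and 2 a negative difference, and 0 were called by limma. The negative ones, Ccr2 at -1.67 and F13a1 at -1.52, had an unadjusted p under 0.05 and groups that did not overlap. Downward, these held for 5.49% and 8.02% of all genes. Among the positive ones, Chil3 at 1.14 had groups that did not overlap in the upward direction (limma unadjusted p 0.062). B and plasma cell markers (4 of 8 measured) summed to 6.51 to 17.5 RPKM in AZD7507 against 12.2 to 26.1 RPKM in Vehicle tumours, and T and NK cell markers (4 of 10) to 1.36 to 1.83 RPKM in AZD7507 against 2.28 to 2.73 RPKM in Vehicle tumours. The part of neutrophils, monocytes and lymphocytes in the oxidase differences was not tested. Of 12 epithelial markers 11 had a value, and they summed to 616 to 832 RPKM in AZD7507 and 460 to 722 RPKM in Vehicle tumours. All 11 had a positive difference, with a median of 0.26, and 0 were called by limma. At an unadjusted p under 0.05, 2 were higher, Krt18 at 0.41 and Krt8 at 0.39, as were 3.31% of all genes. Groups did not overlap for either gene, which held upward for 7.34% of all genes. Pax8, often used as a marker of serous tumours, was far under 1 RPKM in each library, from -3.89 to -2.09. Dendritic cell markers (4 of 8) had a median difference of 0.18. Of these, 3 had a positive difference and 1, Itgax, a negative one of -1.44 (limma adjusted p 0.27). Eosinophil and mast cell markers (3 of 7) and erythrocyte markers (4 of 5) had median differences of 0.33 and -0.77. Acinar markers (8 of 10) summed to 4820 RPKM in AZD7507 2 and 4339 RPKM in Vehicle 2, and to at most 10.1 RPKM in the other 4 libraries.

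**Figure D3:**
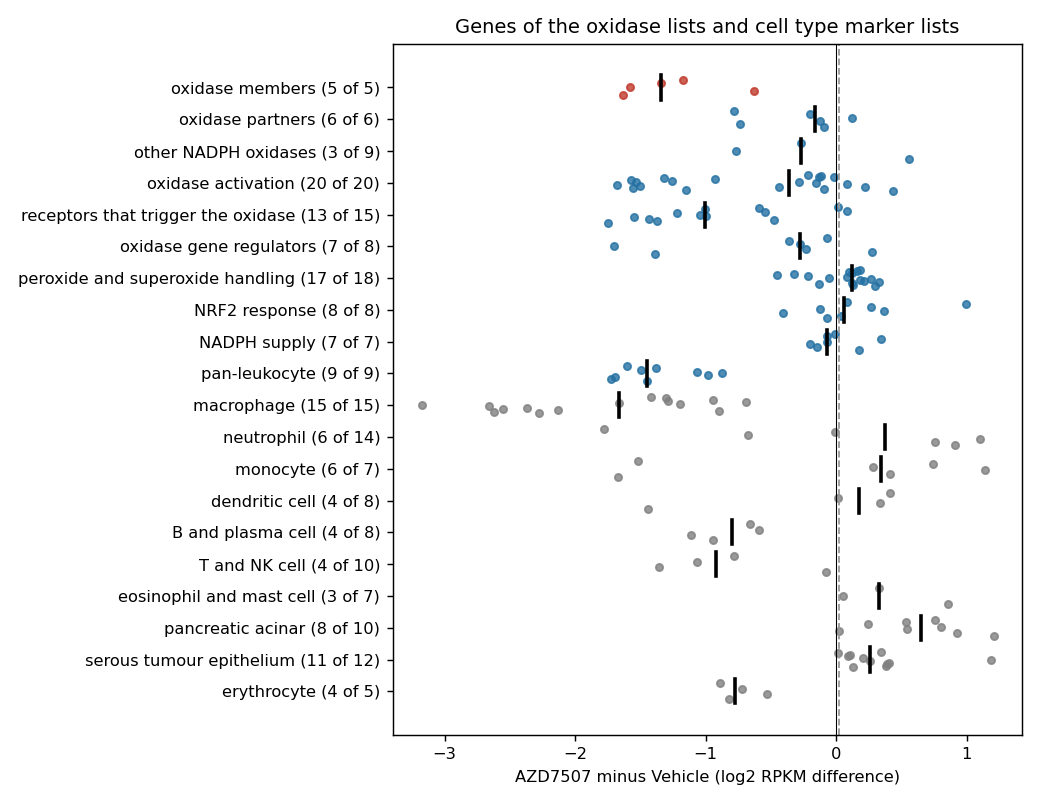
AZD7507 minus Vehicle difference in log2 RPKM (horizontal axis) of each measured gene in the oxidase lists and cell type marker lists, with measured and listed numbers in brackets; short black bars are list medians and the dashed line is the median of all genes, 0.03. The members and the pan-leukocyte and macrophage lists have medians of -1.34, -1.45 and -1.66. The 6 measured neutrophil markers have a median of 0.38, with 3 positive and 3 negative, from -1.78 to 1.11.

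Set against the mean of the 15 macrophage markers in the same library, all members had a positive difference. Cyba stood at 0.24 ± 0.15 above that mean in AZD7507 and at -0.94 ± 0.29 in Vehicle tumours, a difference of 1.18. Ncf4 was at -1.84 ± 0.19 in AZD7507 and -2.31 ± 0.19 in Vehicle tumours, and Ncf1 at -0.62 ± 0.13 in AZD7507 and -0.85 ± 0.06 in Vehicle tumours. For Cyba, Ncf1 and Ncf4 all AZD7507 libraries lay above all Vehicle libraries, with p = 0.10 each (exact permutation test, 2-sided, the smallest possible) and 0.17 adjusted over the 5 members. The differences of Ncf4 and Ncf1 on this scale were 0.47 and 0.24. The marker mean itself differed by -1.81, and its genes by -3.18 to -0.69. A gene lowered less than that mean is higher on this scale, so these results depend on the markers chosen. Cybb was at -0.35 ± 0.15 in AZD7507 and -0.53 ± 0.38 in Vehicle tumours, a difference of 0.18 (exact p 0.70) that was -0.029 without Vehicle 2. Rac2 was at -0.62 ± 0.88 in AZD7507 and -1.26 ± 0.64 in Vehicle tumours, a difference of 0.64 (exact p 0.40). In both groups the replicate 2 library, which is acinar-rich, was lowest for Rac2 on this scale.

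**Figure D4:**
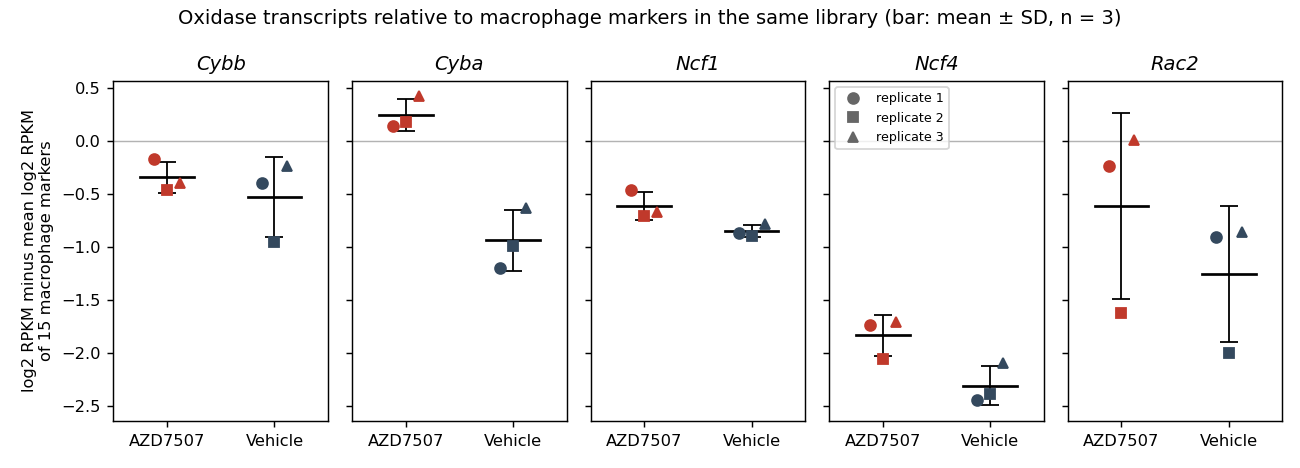
Level of each oxidase gene minus the mean log2 RPKM of 15 macrophage markers in the same library (vertical axis), with marker shapes for replicates and bars for mean ± SD (n = 3). The Cyba values are all above 0 in AZD7507 tumours and all below 0 in Vehicle tumours.

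Reads could be shared with other genes for some members. Ncf1 overlaps Gtf2ird2 on the opposite strand over 4303 bases, and 7.45% of its 50-base transcript windows occur in transcripts of other genes. The Cyba gene lies within Gm20388 on the opposite strand, but 2.39% of its windows occur elsewhere. The share was 1.29% for Rac2 and 0 for Cybb and Ncf4. Since the sources used here do not give the strand setting of the counting, reads from opposite strands may not have been told apart.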

How the data were processed

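Total RNA of 6 mouse tumours, 3 AZD7507 and 3 Vehicle, was made into Ribozero libraries, per the labels' protocols. The deposited table holds log2 RPKM values that the authors normalized with cqn, as its name says. BWA 0.7.15-r1140, HTSeq and the builds mm10 and GRCm38 are named in the submitters' processing notes; the sources used here do not give the annotation release, strand setting or low-value filter. Library medians were 2.317 in all libraries, so any shift common to all genes is removed. The highest value over all libraries was 10.16. No read counts entered, so the depth is unknown and precision comes from the spread between tumours.

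Symbols matched 16306 of 16344 identifiers through GENCODE M21 (GRCm38). The treatment label set the groups. Replicate numbers follow the order of records and pair nothing. Nothing ties a tumour to an animal, so p-values measure the spread between these samples. The log2 values were fitted as deposited, with no pseudocount or filter, in limma 3.58.1 (R 4.3.3) over all genes, the variance prior being robust and trended; differences are AZD7507 minus Vehicle, and the 2-sided Benjamini-Hochberg threshold was 0.05. Ratios and shares were compared by exact permutation over samples. The fit was tested on simulated data.

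Members and the 20 gene lists were chosen with earlier results of these data known. Named genes are the members, the 2 genes of each pathway list with the smallest unadjusted p, the 3 most alike per member, and other listed genes; a few listed genes are not reported here. Markers and further listed genes were picked with their values in view. The alternatives tried were array weights, a constant prior, median centring, quantile normalization, a minimum mean of 0, pseudocounts of 1 and of 0.1, leaving out each library, and leaving out both acinar-rich libraries. Promoters are from RefSeq (GRCm38.p6).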

Additional observations from a re-analysis of the deposited data

How the results depend on the processing

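No paired analysis was possible because the labels give no replicate numbers and tie no sample of one group to one of the other. All 5 members kept a negative difference under 14 alternatives each, and 0 of them passed under any (limma), while 4 or 5 had an unadjusted p under 0.05. Ranges were -1.93 to -1.31 for Cybb, -0.87 to -0.35 for Cyba, -1.86 to -1.26 for Ncf1, -1.60 to -0.86 for Ncf4 and -1.58 to -0.75 for Rac2. Over all genes 55 were called lower and 3 higher; leaving out 1 library gave 0 to 14 lower and 0 higher, array weights 143 and 14, both acinar-rich libraries left out 13 and 1, and a constant prior 1 higher. The sign turned for Rac1 without both acinar-rich libraries (0.037), for Noxo1 with array weights (0.0036), without AZD7507 2 (0.064; range -0.45 to 0.064 over single libraries) and without both acinar-rich libraries (0.17). It also turned for the marker Mmp9 without both acinar-rich libraries (0.045) and for Pax8 with a pseudocount of 1 (-0.0034) and when 1 library was left out (-0.25 to 0.65). Among ratios it turned for Ncf4 minus Rac2 with a pseudocount of 1 (0.047) and when 1 library was left out (-0.56 to 0.16), for Cybb minus Ncf1 (-0.24 to 0.062) and for Cybb minus the macrophage mean (-0.029 to 0.33). The causes were not tested. The share of Rac2 differed by -7.68 to -4.52 percentage points and that of Cybb by -14.1 to -8.40 without single libraries, an alternative added after the data had been seen. With 3 against 3 tumours and unknown depth, values under 1 RPKM, as for Nox1, Rac3 and Ncf4 in AZD7507 3, are the least certain.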
